A study of Mus musculus with 8 samples.

Results

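Ribosome-bound mRNA of the Sox9 lineage was compared with RNA of whole lung at embryonic day 17 (E17) of the mouse, using 1 library of each, 2 of the 8 libraries in the series. The pulldown library is called TRAP below, for translating ribosome affinity purification, which recovers ribosomes from labelled cells together with the mRNA that they are translating. The comparison covered 12301 of the 24487 gene records in each table, those whose FPKM averaged 1 or more over both libraries and whose span was at least 200 bases. FPKM counts sequenced fragments per unit of transcript length and per unit of library size, so that levels of different genes can be set side by side per length.

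Sox9 encodes a transcription factor of the epithelial tips of the growing lung, where branching progenitors give rise first to the conducting airways and later to the alveoli. Late in gestation the distal lung forms saccules, and its epithelium turns on the genes of alveolar type 1 cells, which form the gas exchange surface, and of alveolar type 2 cells, which make surfactant. Whole lung holds these epithelial cells together with mesenchyme, vessels, blood and mesothelium.

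Both E17 libraries came from wildtype embryonic lung of strain C57BL/6. The series design set the E17 Sox9 TRAP library against whole lung homogenate. For both libraries, the labels gave tamoxifen induction of the TRAP label and an immunoprecipitation of L10, a ribosomal protein, also for the homogenate, where a pulldown would not apply. The driver of the recombinase, the day of tamoxifen and the number of pooled embryos or lungs are not given in the labels. An E14 pair of TRAP and whole lung (also wildtype C57BL/6 with the same tamoxifen and L10 entries, 1 library each) and 2 wildtype TRAP libraries of E16 (C57BL/6, with the same entries) were used only to read the E17 values against. The titles of these E16 libraries read Sox9E13E16 and so name E13 as well, unlike the titles of the E14 and E17 pairs. In bulk RNA, fewer cells of a type and less RNA per cell cannot be told apart.

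If read as counting error alone, the deposited confidence bounds corresponded to 15504704 fragments in the E17 TRAP library and 16227391 in E17 whole lung. With 1 library per group there was no replicate check and no test. All differences are log2(TRAP FPKM + 1) minus log2(whole-lung FPKM + 1), which understates the change of low genes, and a record was counted as higher or lower where the difference reached 1, that is 2-fold. By this rule 594 of the 12301 records (4.83%) were higher in TRAP and 1101 (8.95%) were lower. The deposited bounds of the 2 libraries lay apart for 591 of the 594 (4.8% of all records) and for 1100 of the 1101 (8.94%). The exceptions were 1700120C14Rik, Hist1h2bm and Hist1h4j among the higher records and Snhg9 among the lower. Counting error below means the error taken from these bounds, which do not cover the spread between libraries. As a measure of the spread between TRAP libraries, the E16 wildtype replicates differed at least 2-fold in 13 of the same 12301 records (0.106%), with a median absolute difference of 0.077. Tnfrsf1b was the record just inside the expression limit, at 0.416 FPKM in TRAP and 1.59 in whole lung, and Fam169a, at 1.22 and 0.783, lay just outside it. A record under 1 FPKM in 1 library could pass that limit only through the other library, so the filter fixed the direction of its difference. Among records past that limit, the shortest one kept was Rmrp, with a span of 275 bases, and the longest one left out was Rn4.5s, with 174.

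The E17 differences were lopsided. The median over all records was 0.074. The highest was 2.28 for Cldn7, and only 9 records reached 4-fold in the direction of TRAP: Cldn7, Irx3, Cytl1, Tor1aip2, Cym, Smim6, Mia, Fam89a and Rnf43. On the side of whole lung 338 records reached 4-fold and 76 reached 8-fold. The 99th percentile was 1.53 and the 1st percentile was -2.67. At E14 the upper end reached further: 738 of 12099 records (6.1%) were at least 2-fold higher in TRAP and 1133 (9.36%) lower, 98 records were at least 4-fold higher, the 99th percentile was 1.87 and the highest difference was 2.74, while 296 records were at least 4-fold lower.

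**Figure D1:**
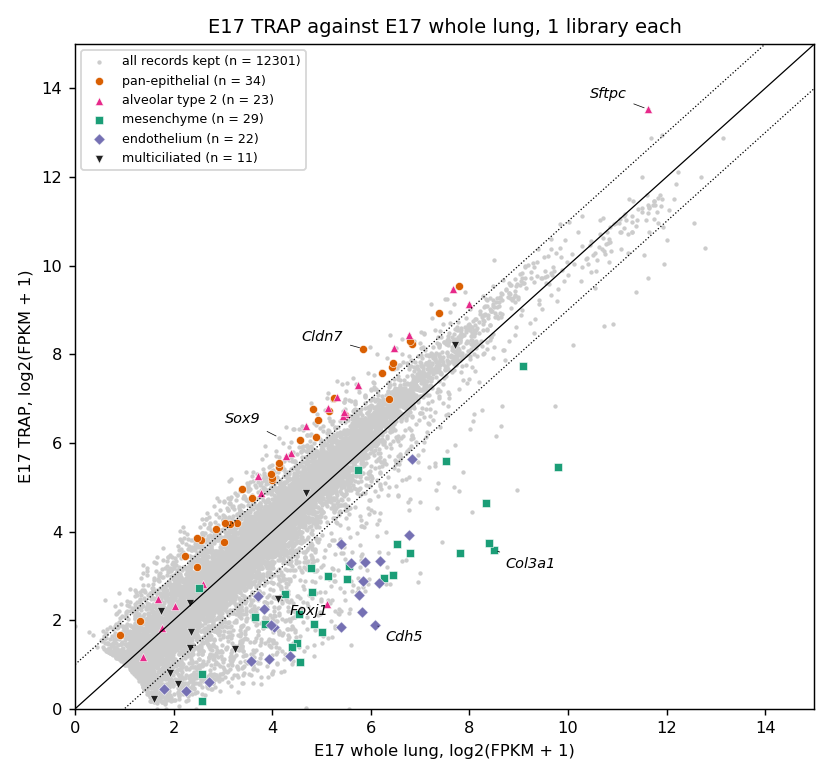
E17 TRAP against E17 whole lung, 1 library each, both axes in log2(FPKM + 1). Grey points are the 12301 records, coloured points are members of 5 gene lists, the solid line marks equal levels and the dotted lines mark 2-fold. Of all records 594 lie above the upper dotted line and 1101 below the lower one, with pan-epithelial and alveolar type 2 genes above the diagonal and mesenchymal and endothelial genes below it.

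The gene with the highest difference at E17 was Cldn7, a claudin of epithelial tight junctions, at 278 FPKM in TRAP and 56.3 in whole lung, 4.87-fold with a counting error of 0.058 on the log2 scale. Next came Irx3, an Iroquois homeobox transcription factor, at 284 and 62.4 FPKM (2.17). Sox9 itself stood at 68.5 and 16.7 FPKM (1.98 ± 0.040, counting error), within the 20 highest genes. Its E14 values were 63.9 and 14.98 FPKM (2.02), and the E17 difference minus the E14 difference was -0.047. The 20 genes also held Wnt7b, a Wnt ligand of the distal epithelium (128 and 33.8 FPKM, 1.896), Rnf43, a ubiquitin ligase that removes Wnt receptors (34.5 and 7.75, 2.02), and Crb3, an apical polarity protein (108 and 27.2, 1.95). The surfactant protein gene Sftpc had the highest level among them, 11835 FPKM in TRAP and 3133 in whole lung (1.92). Jun, an AP-1 transcription factor, was at 160.3 and 41.8 FPKM (1.91), and Il34, a cytokine ligand of the CSF1 receptor, was the lowest of the 20 at 8.51 and 1.58 FPKM (1.88). The others were Cytl1 (2.12), Tor1aip2 (2.1), Cym (2.08), Smim6 (2.08), Mia (2.05), Fam89a (2.04), Gpbp1 (1.99), Bex4 (1.92), Kank1 (1.91), Tarsl2 (1.89) and Smim22 (1.89).

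At the other end, Rmrp, the RNA of a nuclear and mitochondrial endoribonuclease, was listed at 0 in TRAP and at 45.9 FPKM in whole lung. The lowest genes with a value in TRAP were fibrillar collagens of the mesenchyme: Col3a1 at 10.998 FPKM in TRAP and 362 in whole lung (-4.92), Col1a1 at 12.3 and 334 (-4.65) and Col1a2 at 10.5 and 225 (-4.296). Mfap4, a microfibril protein, had the highest whole-lung level of the 20 lowest genes, 891 FPKM against 42.5 in TRAP (-4.36). Vessel genes made up a further share: Cdh5, the endothelial cadherin, was at 2.72 and 66.4 FPKM (-4.18), and Cd93 (-3.65), Aplnr (-3.64), Icam2 (-3.58) and Ednrb (-3.55) followed. Matrix genes other than the 3 collagens were Nid1 (-4.17), Lox (-4.09), Sparcl1 (-3.92), Eln (-3.68), Bgn (-3.62), Ogn (-3.53) and Col5a2 (-3.52). Acta2, smooth muscle actin, differed by -3.697, Adh1, an alcohol dehydrogenase that can act on retinol, by -4.04, and Hoxa5, a homeobox gene of lung mesenchyme, by -3.58.

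Genes common to epithelia were high in TRAP. Of 35 listed genes, 34 passed the filter, 28 of these were higher in TRAP and none was lower, with a median of 1.31 against 0.074 over all records. Summed over the list, the TRAP level was 286% of the whole-lung level. Behind Cldn7 and Crb3 came Spint2, an inhibitor of membrane serine proteases, at 747 and 219 FPKM (1.77), and Lsr, a protein of junctions where 3 cells meet, at 128 and 37.2 (1.76). Epcam, the adhesion molecule used to sort epithelium, was at 299.6 and 113 FPKM (1.396), and Cdh1, epithelial cadherin, at 98.02 and 43.8 (1.14). The epithelial splicing regulators Esrp1 (1.32) and Esrp2 (1.17) and the grainyhead factor Grhl2 (1.03) also passed 2-fold. Short of 2-fold were Elf3 (0.899), Ovol1 (0.76), Ocln (0.75), Cgn (0.73), Ehf (0.66) and Krt19, a keratin that is also a marker of mesothelium (126 and 81.3 FPKM, 0.63). Grhl1 did not pass the filter.

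The list differed more at E14, where the median of the same 34 records was 2.08 and 32 of them had a larger difference than at E17. The share over all records with a larger difference at E14 is not given. Over all records the upper end also reached further at E14, with a 99th percentile of 1.87 against 1.53 at E17, so the shift is not shown to be particular to this list. Epcam differed by 2.11 at E14 (366 and 84.1 FPKM), and Krt8, a simple epithelial keratin, by 2.35 at E14 and 1.29 at E17. The level of Epcam was 366 FPKM in E14 TRAP and 299.6 in E17 TRAP, whereas in whole lung it was 84.1 at E14 and 113 at E17. Each stage had 1 pair of libraries, and the stage difference was not tested.

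**Figure D2:**
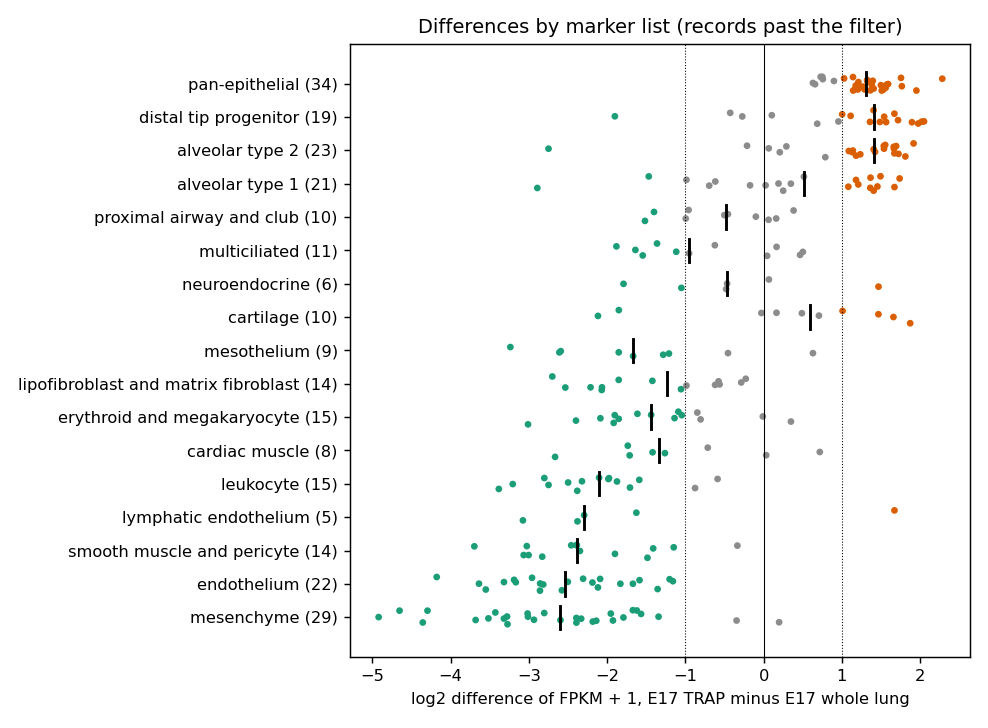
Log2 difference of FPKM + 1 between E17 TRAP and E17 whole lung for members of the gene lists that passed the filter. Each point is a gene record (orange at least 2-fold higher, green at least 2-fold lower), the bar is the list median and dotted lines mark 2-fold. The number after each list name is its members shown. Epithelial, tip and alveolar lists lie mostly right of 0, and mesenchymal, muscle, endothelial and leukocyte lists lie almost wholly left of it.

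A short sequence recurred in the promoters of the pan-epithelial genes. The 250 bases upstream of the transcription start were taken from the RefSeq promoter table (build GRCm38.p6), which matched 9228 of the 12301 records by symbol, 8581 of them with a start within 100 bases of the 5′ end of the record. In these windows the 6 letters CACCTG, or CAGGTG on the other strand, were searched. This is an E-box of the kind that the Snail and Zeb repressors are known to bind. It occurred in 14.7% of all promoters, in 120 of 420 promoters of records higher in TRAP (28.6%), in 105 of 756 promoters of lower records (13.9%) and in 1127 of the 8052 promoters between (13.997%). Of the pan-epithelial list, 14 of the 21 members with a promoter held it, against 0 of 17 of the mesenchyme list and 0 of 12 of the endothelium list. Lists of other kinds held it too, with 6 of 11 promoters for ion and fluid transport, 3 of 8 for cardiac muscle, 4 of 12 for integrins and hemidesmosomes and 6 of 22 for the respiratory chain. A match is a description of the letters in the window and not evidence of binding. Cldn7, the highest gene, had no match. The 6 promoters printed here are those of pan-epithelial genes at least 2-fold higher in TRAP that held 2 or more matches, a choice made after the values were seen. Each is the 250 bases before the start, 5′ to 3′ on the strand of the gene, with the E-box in capitals. They lie at chr17:87635729-87635978 (plus strand, Epcam), chr3:88548280-88548529 (minus, Rab25), chr9:21312334-21312583 (minus, Ap1m2), chr7:30973470-30973719 (minus, Lsr), chr7:29281978-29282227 (minus, Spint2) and chr17:57061981-57062230 (plus, Crb3).
Epcam: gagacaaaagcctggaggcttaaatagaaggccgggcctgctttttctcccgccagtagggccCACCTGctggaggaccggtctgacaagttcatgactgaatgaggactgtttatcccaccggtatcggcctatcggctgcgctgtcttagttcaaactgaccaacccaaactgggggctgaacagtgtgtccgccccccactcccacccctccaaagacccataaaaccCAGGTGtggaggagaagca
Rab25: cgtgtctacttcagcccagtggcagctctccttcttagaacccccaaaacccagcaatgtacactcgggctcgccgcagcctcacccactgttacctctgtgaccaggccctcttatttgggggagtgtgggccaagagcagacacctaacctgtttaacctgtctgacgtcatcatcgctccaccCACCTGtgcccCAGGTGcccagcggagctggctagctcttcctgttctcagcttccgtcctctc
Ap1m2: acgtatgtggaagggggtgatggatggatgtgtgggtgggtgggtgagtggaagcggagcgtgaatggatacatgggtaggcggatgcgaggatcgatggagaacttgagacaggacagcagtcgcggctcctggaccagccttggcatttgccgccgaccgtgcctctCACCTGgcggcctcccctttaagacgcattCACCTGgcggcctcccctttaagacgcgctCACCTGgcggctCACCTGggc
Lsr: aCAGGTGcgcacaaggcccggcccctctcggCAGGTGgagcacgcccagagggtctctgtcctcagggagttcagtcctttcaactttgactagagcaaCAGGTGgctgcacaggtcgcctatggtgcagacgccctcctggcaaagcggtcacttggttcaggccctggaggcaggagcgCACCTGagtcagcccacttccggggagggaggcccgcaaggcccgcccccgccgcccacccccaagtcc
Spint2: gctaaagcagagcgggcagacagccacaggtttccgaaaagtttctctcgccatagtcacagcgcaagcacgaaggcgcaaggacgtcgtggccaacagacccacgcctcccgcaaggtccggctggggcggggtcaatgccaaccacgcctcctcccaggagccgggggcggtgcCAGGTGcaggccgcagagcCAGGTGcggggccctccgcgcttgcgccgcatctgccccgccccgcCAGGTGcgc
Crb3: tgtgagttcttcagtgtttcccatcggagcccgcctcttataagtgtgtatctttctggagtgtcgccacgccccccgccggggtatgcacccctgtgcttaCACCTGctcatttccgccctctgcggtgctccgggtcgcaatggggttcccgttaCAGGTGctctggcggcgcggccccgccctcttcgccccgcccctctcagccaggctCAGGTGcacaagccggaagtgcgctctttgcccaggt

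Ap1m2, an adaptor subunit for sorting proteins to the basolateral membrane, and Lsr held 4 matches each, Spint2 and Crb3 held 3 each, and Epcam and Rab25, a small GTPase of the apical recycling pathway, held 2 each. The TRAP and whole-lung levels of Ap1m2 were 45.8 and 16.7 FPKM (1.41) and those of Rab25 were 90.6 and 29.4 (1.59). The share of promoters with the E-box was highest in the class of differences between 1 and 1.5 (30.3% of 323), with 22.7% of 97 above 1.5 and 20.6% of 1250 between 0.5 and 1. In each class below 0.5 it was between 11.6% and 14.2%. Of tip progenitor promoters 2 of 13 held it, and of alveolar type 2 promoters 2 of 17.

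**Figure D3:**
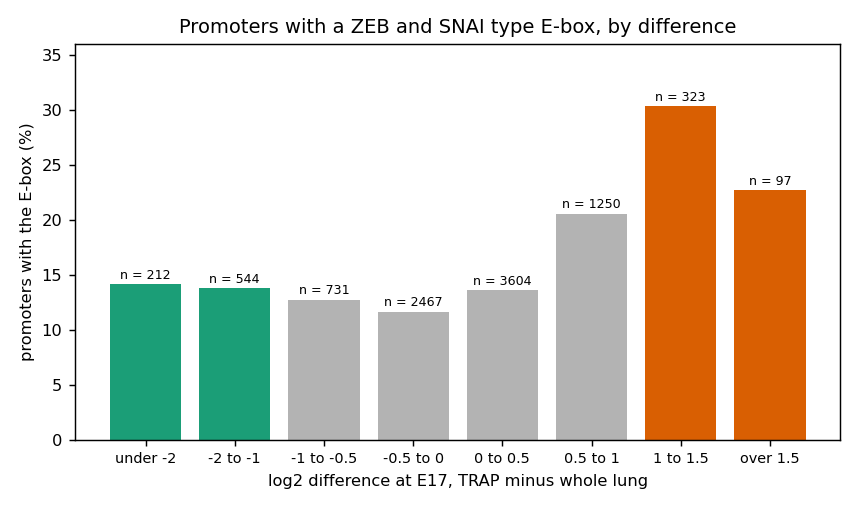
Share of promoters, in percent, that hold CACCTG or CAGGTG in the 250 bases before the start, by class of the E17 log2 difference between TRAP and whole lung. The number of promoters is above each bar. The classes from 0.5 upward reach 20.6%, 30.3% and 22.7%, against 14.7% of all 9228 promoters.

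Other motifs were searched in the same windows, also on both strands. ACCGGTT, a grainyhead core, was in 1.19% of promoters of higher records and 1.39% of all, GTAAACA (forkhead) in 2.38% and 1.93%, AACAAT (SOX) in 4.29% and 4.68%, and CAAGTG (NKX2) in 11.4% and 9.16%. CATTCC (TEAD) was in 15.7% of the higher and 14.9% of the lower promoters, against 9.94% of those between. The median GC content was 60.4% for higher and 59.6% for lower records, against 60.8% for all.

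Of 25 transcription factors of lung epithelium, all of which passed the filter, 18 were higher in TRAP and none was lower (median 1.34). Nkx2-1, which specifies the lung lineage, had 491 FPKM in TRAP and 194 in whole lung (1.34). The Iroquois genes Irx1 (239 and 79.2 FPKM, 1.58), Irx5 (1.47) and Irx2 (1.42) followed Irx3. The forkhead factors Foxa2 (1.36), Foxp2 (1.35) and Foxa1 (1.21) passed 2-fold. The smallest differences above 0 were those of Foxp1 (0.27), Sox4 (0.201) and Sox11 (0.051). The airway factor Sox2 was the only one below 0, at 4.405 and 6.65 FPKM (-0.502).

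Tip progenitor genes were mostly high in TRAP. Of 20 listed genes 19 passed the filter, with 13 higher, 1 lower and a median of 1.41. Mia, a small secreted protein, was at 346 and 82.8 FPKM (2.05), Etv5, an ETS factor induced by FGF, at 281 and 87.5 (1.67), and Id2, an inhibitor of helix-loop-helix factors, at 447 and 150.3 (1.57). Fgfr2, the receptor for FGF10 from the mesenchyme, was at 124 and 46.1 FPKM (1.41), and Mycn at 43.2 and 14.2 (1.54). The Sprouty inhibitors of FGF signalling diverged: Spry2 differed by 0.96, Spry1 by 0.69 and Spry4 by -1.901 (1.17 FPKM in TRAP and 7.09 in whole lung). Dusp6, a phosphatase that dampens ERK, differed by 0.105, and the Wnt feedback genes Nkd1 and Axin2 by -0.27 and -0.43.

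Of 24 alveolar type 2 genes 23 passed the filter, 17 were higher, 1 was lower and the median was 1.41. Beside Sftpc stood the surfactant protein Sftpb, at 709 FPKM in TRAP and 201 in whole lung (1.81), and Napsa, a protease that processes surfactant protein B, at 81.7 and 24.6 (1.69). Abca3, which loads lipid into lamellar bodies, was at 53.9 and 19.7 FPKM (1.41), Lamp3, a lamellar body membrane protein, at 37.2 and 12.2 (1.54), and Sftpa1 at 37.2 and 12.1 (1.54). Summed over the list, TRAP held 352% of the whole-lung level, a sum in which Sftpc was by far the largest term. Sftpd was low in both libraries, at 2.55 and 2.39 FPKM (0.065). The 1 lower gene was Lyz2, lysozyme M, at 4.14 and 33.6 FPKM (-2.75), which macrophages also express. All other leukocyte genes that passed the filter were below 0 as well, and their part in the value of Lyz2 was not tested.

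Sftpc, Napsa and Slc34a2 were at much higher levels at E17 than at E14. Sftpc was at 399.6 FPKM in TRAP and 68.4 in whole lung at E14 (2.53), against 1.92 at E17. Napsa went from 1.77 and 0.321 FPKM at E14 (1.07) to the E17 values above. Slc34a2, a phosphate transporter of type 2 cells, differed by 0.41 at E14 (0.677 and 0.264 FPKM) and by 1.09 at E17 (28.2 and 12.7). Sftpd, a surfactant collectin, was low throughout, with 3.88 FPKM in TRAP and 0.979 in whole lung at E14 (1.302) and 2.55 and 2.39 at E17 (0.065). Its level at E17 was thus lower in TRAP and higher in whole lung than at E14.

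Alveolar type 1 genes were split. Of 24 listed genes 21 passed the filter, with 10 higher, 2 lower and a median of 0.52. The higher ones included Pdpn, a membrane glycoprotein also made by lymphatic vessels (77.2 and 23.5 FPKM, 1.67), Hopx, a homeodomain cofactor (362 and 128, 1.49), and Ager, a receptor that lines the surface of type 1 cells (255 and 98.3, 1.37). Igfbp2, a binding protein for insulin-like growth factors, was the highest at 602 and 179.8 FPKM (1.74). Cav1 and Cav2, caveolins that endothelium also makes in quantity, were at 28.9 and 221 FPKM (-2.89) and 13.8 and 22.9 (-0.695). All 22 endothelial genes that passed the filter were lower in TRAP too, and their part in the caveolin values was not tested. Vegfa, which type 1 cells supply to capillaries, differed by 0.35, Emp2 by 0.25 and S100a6 by 0.026. Sec14l3 was the second lower gene, at 1.63 and 6.27 FPKM (-1.47).

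Genes of the conducting airway were not high in TRAP at E17. Of 18 listed genes of the proximal airway and its secretory club cells, 10 passed the filter, none was higher, 2 were lower and the median was -0.48. Scgb3a2, a secretoglobin of club cells, stood at 106 FPKM in TRAP and 304 in whole lung (-1.52), and Krt15, a basal keratin, at 2.33 and 7.802 (-1.401). Upk3a, a uroplakin of a club cell subset, was at 0.723 and 2.43 FPKM (-0.995, just under 2-fold), and Cyp2f2, a club cell cytochrome, at 4.27 and 9.24 (-0.96). Scgb1a1, the main club cell protein, was at 239 and 228 FPKM (0.063). Aldh1a7 (0.38), Hes1 (0.16), Scgb3a1 (-0.099) and Cbr2 (-0.46) also lay within 2-fold.

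At E14 all 10 of these airway genes were above 0, against 3 of 10 at E17. The median of the same 10 records was 1.002 at E14, and all 10 had a larger difference at E14 than at E17. Scgb3a2 was at 91.5 FPKM in TRAP and 46.8 in whole lung at E14 (0.95), Krt15 at 7.33 and 1.75 (1.599), and Scgb1a1 at 399.8 and 173 (1.201). The TRAP level of Scgb3a2 was thus 91.5 FPKM at E14 and 106 at E17, while its whole-lung level was 46.8 and 304. Sox2 differed by 0.34 at E14 (12.8 and 9.901 FPKM) and by -0.502 at E17. The pan-epithelial list stayed above 0 at both stages, but 32 of its 34 records also had a larger difference at E14. So did 19 of 25 lung epithelial transcription factors, 16 of 19 tip progenitor genes and 12 of 23 alveolar type 2 genes. The share over all records is not given. These stage contrasts rest on 1 pair of libraries each and were not tested.

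Of 19 listed genes of multiciliated cells 11 passed the filter, 5 were lower, none was higher and the median was -0.95. Only 7 of these 11 also passed the filter at E14, and their median was 0.045 at E17 and 0.34 at E14, with 6 of the 7 lower at E17 than at E14. Foxj1, the master regulator of motile cilia, was at 4.601 FPKM in TRAP and 16.4 in whole lung at E17 (-1.64) and at 2.25 and 1.01 at E14 (0.69). Ccno (1.55 and 8.41 FPKM, -1.88), Mcidas (0.463 and 3.27, -1.54) and Cdc20b (0.174 and 2.02, -1.36), which drive centriole multiplication, were low in TRAP. Fam183b was the remaining lower gene (-1.12). The 4 genes above 0 were Tubb4b, a tubulin (293 and 207 FPKM, 0.502), the transcription factor Rfx3 (0.47), Tppp3 (28.04 and 24.9 FPKM, 0.17) and Rfx2 (0.045).

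**Figure D4:**
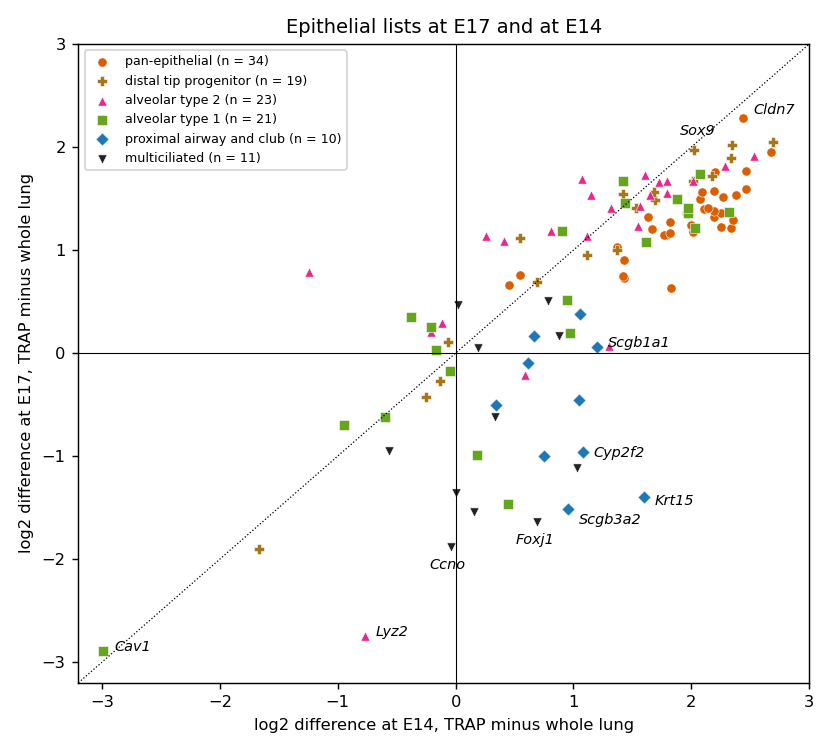
Log2 difference of FPKM + 1 between TRAP and whole lung at E14 (horizontal) and at E17 (vertical) for members of epithelial lists, 1 pair of libraries at each stage. Most alveolar and all pan-epithelial genes lie in the upper right, while airway genes and all but 1 of the multiciliated genes (4 of 11 of them under the filter at E14) lie below the diagonal, several of them above 0 at E14 and below 0 at E17 (Scgb3a2 at 0.95 and -1.52, Foxj1 at 0.69 and -1.64).

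Neuroendocrine genes were mostly too low to read: 6 of 15 passed the filter. Uchl1, a ubiquitin hydrolase, was higher (121 and 43.2 FPKM, 1.47), and Grp, the bombesin-like peptide of these cells (1.603 and 4.39, -1.05), and Nov (0.241 and 3.29, -1.79) were lower. Neurod1 and Pcsk1 were listed at 0 in TRAP.

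Mesenchymal genes were low in TRAP nearly throughout. Of 31 listed genes 29 passed the filter, 27 were lower, none was higher, the median was -2.596 and the summed TRAP level was 13.8% of that in whole lung. Tbx4, a T-box factor of lung mesenchyme, was at 7.09 FPKM in TRAP and 86.1 in whole lung (-3.43), Foxf1, a hedgehog target there, at 12.2 and 91.3 (-2.804), and Tcf21, a fibroblast factor, at 47.5 and 183 (-1.93). Repressors of the epithelial state were low as well: Snai2 was at 6.76 and 76.4 FPKM (-3.32), Zeb2 at 1.81 and 21.8 (-3.02) and Zeb1 at 0.726 and 4.97 (-1.79). The 2 that stayed within 2-fold were Prrx1 (5.58 and 4.74 FPKM, 0.198) and Fbln1, fibulin 1 (41.1 and 52.5, -0.35). Vim, vimentin, kept a level of 213 FPKM in TRAP, against 543 in whole lung (-1.34).

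Lipofibroblast and matrix fibroblast genes followed with 8 of 14 lower and none higher (median -1.24). Itga8, an integrin subunit of mesenchyme (0.874 and 11.2 FPKM, -2.701), Gyg, glycogenin (39.3 and 232, -2.53), Enpp2 (-2.21) and Hhip, a hedgehog-binding inhibitor (-2.07), were lowest. Plin2, which coats lipid droplets, was at 19.4 and 53.6 FPKM (-1.42). Pparg (-0.23), Ces1d (-0.29), Npnt (-0.56) and Fgf7 (-0.58) stayed within 2-fold.

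Of 14 smooth muscle and pericyte genes that passed the filter, 13 were lower and the median was -2.39. After Acta2 came Actg2, enteric actin (3.63 and 37.8 FPKM, -3.07), Rgs5, a pericyte regulator of G proteins (0.5002 and 11.2, -3.03), and Mylk, myosin light chain kinase (4.51 and 43.2, -3.004). Only the pericyte proteoglycan Cspg4 stayed within 2-fold (2.61 and 3.55 FPKM, -0.34).

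The endothelium list had no exception: all 22 of the 23 listed genes that passed the filter were lower, with a median of -2.54 and a summed TRAP level 16.4% of that in whole lung. Kdr, the main VEGF receptor, was at 1.28 FPKM in TRAP and 19.4 in whole lung (-3.17), Plvap, of fenestrated capillaries, at 6.16 and 70.5 (-3.32), and Pecam1 at 9.11 and 72.3 (-2.86). The differences closest to 0 were those of Erg (4.83 and 12.03 FPKM, -1.16) and Egfl7 (48.9 and 114, -1.201). Of lymphatic genes, Lyve1 (2.45 and 28.1 FPKM, -3.08), Ccl21a (-2.38), Flt4 (-2.29) and Mmrn1 (-1.63) were lower and Pdpn, shared with type 1 cells, was higher.

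Genes of blood cells were low in TRAP as well. Of 15 leukocyte genes that passed the filter 13 were lower (median -2.103, summed level 14.2% of whole lung), and Ptprc, the common leukocyte antigen, was listed at 0 in TRAP and at 0.38 FPKM in whole lung. C1qa, a complement subunit made by macrophages, was at 0.795 and 17.7 FPKM (-3.38), and Csf1r, the macrophage growth factor receptor, at 0.247 and 5.23 (-2.32). Like other leukocyte genes under 1 FPKM in TRAP, both passed the filter only through whole lung, which fixed their direction. The count and median of the list are partly set by this. Of 15 erythroid and megakaryocyte records 11 were lower (median -1.44), and their summed TRAP level was 28.01% of that in whole lung. Alas2, which starts haem synthesis in red cells, was at 5.62 and 52.4 FPKM (-3.01), and Hbb-b1, an adult beta globin, at 1338 and 7058 (-2.398). Globin records overlap or are near-identical in sequence, so that their single values are uncertain.

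Mesothelial genes were lower in 7 of 9 that passed the filter (median -1.67). Nkain4 was at 5.27 FPKM in TRAP and 58.1 in whole lung (-3.24), Aldh1a2, which makes retinoic acid, at 1.197 and 12.4 (-2.61), and Upk3b at 2.56 and 20.5 (-2.59). Wt1 stood at 0.214 and 1.956 FPKM (-1.28). Cardiac muscle genes, a sign of heart or of pulmonary vein muscle in the tissue, were lower in 5 of 8, with Actc1 at 2.89 and 23.7 FPKM (-2.66) and Myl7 at 3.94 and 15.5 (-1.74). The cardiac myosins Myh7 (4.95 and 2.61 FPKM, 0.72) and Myh6 (0.033) were above 0. Of neural and Schwann genes 4 of 15 passed the filter, Stmn2 (-1.695) and Fabp7 (-1.68) being lower and Erbb3, a neuregulin receptor that epithelium also makes, higher (22.9 and 9.59 FPKM, 1.18). Mbp was above 0 but short of 2-fold (9.98 and 4.98 FPKM, 0.88).

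Sox9 also regulates cartilage, and cartilage genes were therefore looked at. Of 15 listed genes 10 passed the filter, with 4 higher and 2 lower. The higher ones were Col9a3 (25.97 and 6.36 FPKM, 1.87), Col9a1 (12.96 and 3.42, 1.66), Matn4, a matrilin (71.2 and 25.1, 1.47), and Col2a1, the main cartilage collagen (4.83 and 1.895, 1.01). Col9a2 (1.963 and 9.69 FPKM, -1.85) and Hapln1, a link protein (0.867 and 7.097, -2.12), were lower. Acan, the cartilage proteoglycan, and Matn1 were listed at 0 in both libraries.

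Signals sent from epithelium to mesenchyme were partly high in TRAP. Of 25 listed epithelial ligands 24 passed the filter, with 9 higher and 1 lower (median 0.72). Next to Wnt7b stood Pdgfa, which acts on fibroblast progenitors (177 FPKM in TRAP and 48.8 in whole lung, 1.84), Tgfb2 (82.4 and 23.3, 1.78) and Pthlh, the parathyroid hormone-related peptide that acts on lipofibroblasts (13.3 and 3.38, 1.71). Shh, the hedgehog ligand, was at 79.6 and 30.4 FPKM (1.36), and Bmp4 at 150.4 and 53.05 (1.49). Areg (1.67) and Tgfa (1.31), ligands of the EGF receptor, and Bmp7 (1.39) completed the higher genes, and Wnt5a, made on both sides of the epithelial border, was lower (5.3 and 12.2 FPKM, -1.07).

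For some of these ligands the receptor gene lay on the opposite side of 0. This did not hold for all: Egfr, the receptor for AREG and TGFA, lay above 0 like both ligand genes. The receptors named here are a selection, made after the values were seen. Pdgfra, the receptor for PDGFA, was at 1.64 FPKM in TRAP and 20.3 in whole lung (-3.01), and Pth1r, the receptor for PTHLH, at 13.8 and 68.4 (-2.23). The hedgehog receptor gene Ptch1 was closer, at 17.4 and 27.4 FPKM (-0.63). The hedgehog pathway gene Smo was at 66.7 and 73.8 (-0.15) and the hedgehog target Gli1 at 5.02 and 18.2 (-1.67). Kdr, for VEGFA, differed by -3.17, though Vegfa itself was short of 2-fold. Fzd1 (-1.46) and Fzd4 (-1.31), receptors for Wnt ligands, were lower, while Fzd2 had the highest difference of the list (97.1 and 51.96 FPKM, 0.89). Of the 28 mesenchymal and vascular receptors, all past the filter, 16 were lower and none was higher (median -1.23).

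Of signals in the other direction, the ligand genes had the opposite order, while the receptor genes were mixed. Of 24 mesenchymal ligands 21 passed the filter, 11 were lower and none was higher (median -1.03). Fgf10, which draws out the tips, was at 2.74 FPKM in TRAP and 13.5 in whole lung (-1.95), Wnt2 at 8.401 and 46.3 (-2.33), Igf1 at 2.09 and 21.5 (-2.86) and Cxcl12 at 5.71 and 56.4 (-3.095). Igf2 (472 and 528 FPKM, -0.16) and Tgfb3 (40.3 and 23.6, 0.75) stayed within 2-fold. Of 24 epithelial receptors 23 passed the filter and only 3 were higher, Fgfr2, Erbb3 and F2rl1, a protease-activated receptor (11.8 and 4.58 FPKM, 1.19), while Notch2 (-1.25), Lgr4 (-1.32) and Lgr6 (-1.66) were lower. Met, the receptor for hepatocyte growth factor (0.75), and Egfr (0.22) lay between, and the list median was 0.22.

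**Figure D5:**
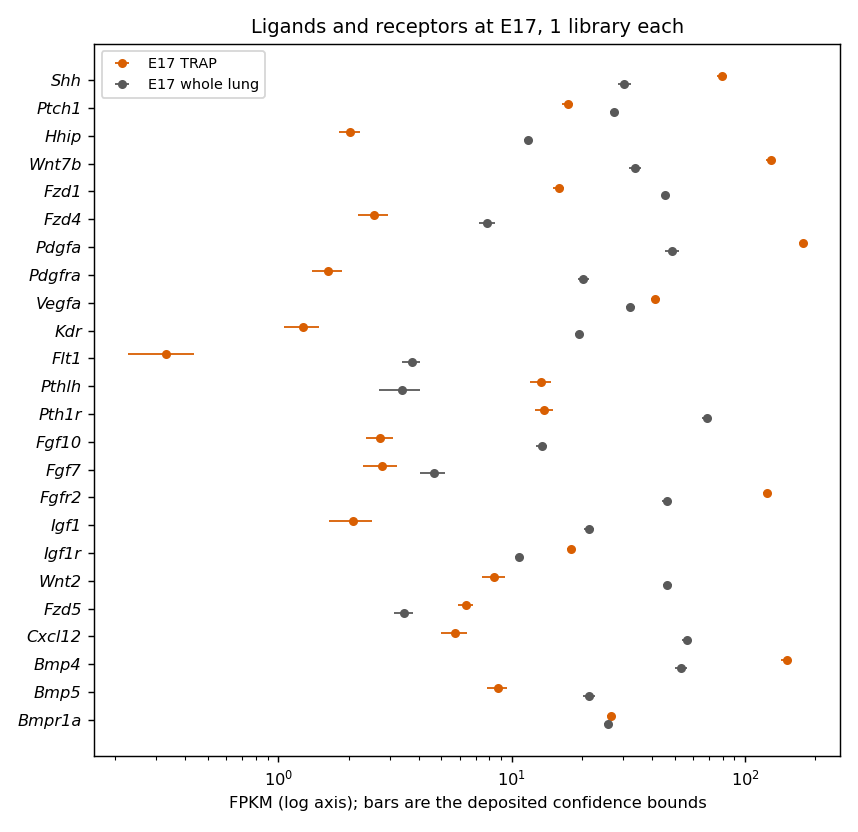
FPKM of ligand and receptor genes in E17 TRAP (orange) and E17 whole lung (grey) on a log axis, 1 library each, with the deposited confidence bounds as horizontal bars. For epithelial ligands such as Wnt7b and Pdgfa the TRAP point lies to the right, and for receptors such as Pdgfra and Pth1r and mesenchymal ligands such as Fgf10 it lies to the left.

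Basement membrane genes were divided by chain. Of 22 listed genes 20 passed the filter, with 4 higher and 3 lower. The higher ones included Lamb3, a chain of an epithelial laminin (32.01 and 12.4 FPKM, 1.303), Col18a1 (296 and 112, 1.39) and Col4a6 (9.04 and 3.16, 1.27). Lama3, a partner chain of Lamb3, differed by 0.83. The ubiquitous type IV collagen chains Col4a1 (-0.19) and Col4a2 (-0.075) and the laminin chains Lamc1 (0.297) and Lama5 (0.26) stayed close to 0. The lower ones were both nidogens, Nid1 (1.69 and 47.5 FPKM, -4.17) and Nid2 (1.102 and 20.4, -3.35), which link laminin to collagen, and Lama4, a laminin chain of vessels (1.62 and 25.2, -3.32).

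Among integrins, Itga3, a laminin receptor subunit of epithelium, was the only one higher (47.3 and 17.9 FPKM, 1.35), and 7 of 13 were lower. Itga8 (-2.701), Itga5, the fibronectin receptor subunit (3.14 and 20.3 FPKM, -2.36), and the collagen receptor subunit Itga1 (0.257 and 4.95, -2.24) were the lowest. Itga6 (-0.040) and the common beta chain Itgb1 (95.2 and 134 FPKM, -0.49) stayed within 2-fold.

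Enzymes of surfactant lipid synthesis were mostly within 2-fold: of 24, all past the filter, 4 were higher and 1 lower (median 0.33). The higher ones were Fasn, fatty acid synthase (50.9 FPKM in TRAP and 18.4 in whole lung, 1.42), Pla2g1b, a secreted phospholipase (22.8 and 8.23, 1.37), Fabp5, a fatty acid carrier (153 and 65.4, 1.21), and Lpcat1, which remodels lecithin for surfactant (96.5 and 41.97, 1.18). Elovl6, an elongase, was lower (1.01 and 4.995 FPKM, -1.58). The sterol gene Hmgcs1 (-0.46) and Pcyt1a, the rate-setting enzyme of lecithin synthesis (-0.25), were slightly below 0.

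Fetal lung secretes chloride and fluid and must absorb it at birth. Of 21 genes of ion and fluid transport 16 passed the filter, with 3 higher and 1 lower. The higher ones were Atp1b1, a sodium pump subunit (141 and 52.96 FPKM, 1.397), and the anion channels or transporters Slc26a9 (11.2 and 4.13, 1.25) and Ano1 (41.3 and 17.3, 1.204). Aqp1, the water channel of vessels and red cells, was lower (8.499 and 31.6 FPKM, -1.78). Cftr (0.497) and the sodium channel subunits Scnn1a (0.35), Scnn1g (0.19) and Scnn1b (-0.399) were within 2-fold and at most 5.41 FPKM in TRAP.

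Genes of general cell functions differed little. None of 28 cell cycle genes differed by 2-fold in either direction, with differences from -0.58 (Ccnd2) to 0.604 (Bub1b) and a median of 0.299. Of 30 nuclear genes of the respiratory chain 1 was higher, Cox7a2 (369 and 169 FPKM, 1.12), and the median was 0.33. Cytosolic ribosomal protein genes lay mostly below 0, with a median of -0.31 and 1 of 42 lower by 2-fold, Rplp0 (1206 and 2993 FPKM, -1.31). Rpl10 was at 1840 and 2248 FPKM (-0.29), and Rpl10a, a different ribosomal protein gene despite its name, at 2147 and 1663 (0.37). The labels name L10 for the pulldown and do not say which of these genes is meant. Neither value checks the label, since a tagged copy cannot be told from the native gene in these tables.

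Of 11 listed nuclear or noncoding RNAs past the filter 9 were lower in TRAP and none was higher (median -1.87). H19, an imprinted noncoding RNA, was at 413 FPKM in TRAP and 1928 in whole lung (-2.22), Malat1, a nuclear RNA, at 1.87 and 9.15 (-1.82), and Rpph1, the RNA of ribonuclease P, at 0.641 and 12.6 (-3.05). Snhg1, a host gene of small nucleolar RNAs, was the nearest to 0 (112 and 114 FPKM, -0.030). H19, Meg3 (-1.37) and Rian (-2.61) are also known from mesenchyme, whose list was lower in TRAP, and the part of cell type in their values was not tested. Over all records with a RefSeq biotype, long noncoding RNAs made up 22 of 548 higher records (4.01%), 26 of 1050 lower records (2.48%) and 232 of 11558 in all (2.01%), so the direction of the listed RNAs did not hold for long noncoding RNAs as a class.

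Of 18 listed AP-1 and other immediate early genes 15 passed the filter, with 1 higher (Jun), 3 lower and 11 between. Over all records 4.83% were higher and 8.95% lower, so a single higher gene is no result about the list. The related Junb (13.1 and 8.91 FPKM, 0.51) and Jund (155 and 114, 0.43) were within 2-fold. Klf2, a flow-induced factor of endothelium (2.93 and 19.4 FPKM, -2.38), Egr1 (1.095 and 5.01, -1.52) and Dusp1 (5.197 and 12.3, -1.097) were lower, and Fos did not pass the filter.

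Set against the E14 pair, which shares no library with the E17 pair, most E17 calls recurred. Of 568 records that were higher at E17 and passed the E14 filter, 416 (73.2%) were higher at E14 too, and these were 58.3% of the 714 higher at E14. Of 976 records lower at E17, 790 (80.9%) were lower at E14, which were 74.0% of the 1067 lower there. Across the 11799 records that passed both filters the differences had a Pearson r of 0.87 and a Spearman rho of 0.85, a description across genes, which are not independent replicates. Only 3 of these records were 2-fold higher at E14 and 2-fold lower at E17: Eif3j2, Krt15 and Rps27. In the E16 libraries, both replicates were above the E17 whole-lung level for 539 of the 594 higher records and under it for 1088 of the 1101 lower records. These libraries are of another stage. The E17 whole-lung library compared here is also the one that set the calls, so these counts are no independent check of them. By at least 2-fold on FPKM + 1, both were above it for 283 of the 594 and under it for 947 of the 1101, and for 138 of the 594 both were under 1.5 times the whole-lung level.

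The genes whose E17 difference most exceeded the E14 difference were Eif3j1, Hbb-bs, Calb2, Hbb-y, Sema3a, Col15a1, Ptgs1, Hbb-bh1, Hba-x and Rnaset2b. In 8 of them, all but Hbb-bs and Rnaset2b, the E17 levels in TRAP and whole lung lay within 2-fold of each other on FPKM + 1 after a lower level in TRAP at E14. Sema3a, a secreted guidance cue, was at 1.94 FPKM in TRAP and 15.9 in whole lung at E14 (-2.53) and at 6.696 and 6.44 at E17 (0.049). Col15a1, a basement membrane collagen, went from 1.32 and 9.25 FPKM (-2.15) to 20.4 and 19.03 (0.095), and Ptgs1, a prostaglandin synthase, from 0.858 and 4.84 (-1.65) to 21.3 and 15.4 (0.44). Calb2, calretinin, was at 1.65 and 16.96 FPKM at E14 (-2.76) and 7.35 and 6.89 at E17 (0.082). In these 4 genes the E17 TRAP level was above the E14 TRAP level. The embryonic globins in this group, Hbb-y (-2.78 at E14 and -0.010 at E17), Hbb-bh1 (-2.61 and -0.81) and Hba-x (-2.57 and -0.85), were at lower whole-lung levels at E17, for example 8905 FPKM at E14 and 151 at E17 for Hbb-y.

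The genes whose E17 difference lay farthest below the E14 difference were Ccl21a, Eif3j2, Hsd11b1, Krt15, Rps27, Ablim3, Eln, Fmo2, Ace and Scgb3a2. For 5 of them the whole-lung level was low at E14 and higher at E17, with little in TRAP at either stage. Ace, angiotensin-converting enzyme of capillaries, was at 1.13 and 0.909 FPKM in TRAP and whole lung at E14 (0.15) and at 0.858 and 8.91 at E17 (-2.42). Hsd11b1, which activates glucocorticoid, was at 0.937 and 0.302 FPKM at E14 (0.57) and 1.06 and 12.1 at E17 (-2.67), and Fmo2, a monooxygenase, at 0.504 and 0.274 (0.24) and 0.928 and 8.81 (-2.35). Ablim3 (0.18 at E14 and -2.68 at E17) and Ccl21a (1.38 and -2.38) were the others of this kind. Eln, elastin, had 64.02 FPKM in whole lung at E14 and 321 at E17, with 30.9 and 24.1 in TRAP.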

How the data were processed

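RNA-seq libraries of mouse embryonic lung were grouped by their titles and stage labels. The deposited tables, 1 for each library, give FPKM for 24487 gene records with both confidence limits, per the file headers. The submitters' processing notes name TopHat2 2.0.14, Bowtie2 2.2.3, Cufflinks 2.2.1, Cuffnorm and the build mm10. Library preparation used NEBNext Ultra according to the labels. Which normalization Cuffnorm applied is not given in the sources, and values were taken as deposited.

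Records were matched between tables by identifier, position and start group. Of 12338 records whose E17 FPKM averaged 1 or more, 35 spanned under 200 bases and 2 were marked as failed, leaving 12301. The short records were left out because they held 37.7% of the FPKM sum of E17 TRAP and 8.32% of that of E17 whole lung. A pseudocount of 1 FPKM was added before taking log2. Dividing a value by its standard error (the upper bound was taken to lie 2 standard errors above it) and squaring gave a nominal number of fragments, as if the bounds held counting error alone. For some records this number did not follow the FPKM. Cldn7 had 1892 at 278 FPKM in TRAP and 893 at 56.3 in whole lung, and H19 had 2111 at 413 and 2301 at 1928. The bounds of such records are not those of counting alone, and no bounds cover the spread between libraries. The E14 filter was applied in the same way (12099 records). The steps were tested on simulated data, and Python 3.11.15, numpy 2.4.6, pandas 2.3.3 and matplotlib 3.10.9 were used. The files had no raw counts, and no test was run because each group held 1 library.

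The members, the 32 gene lists and the motifs were chosen with earlier results of these data known. Genes were named by rule: the 20 highest and the 20 lowest that reached 5 FPKM in either library, the 4 highest and 4 lowest of each list and any member called against its list median, the 10 with the largest stage shift each way, Sox9, Rpl10 and Rpl10a, passing over predicted models and pseudogenes. Other list members were named after their values were seen. Motifs were searched on both strands in the 250 bases before RefSeq starts. The alternatives were other pseudocounts, other filters, 2 rescalings and calls only where bounds lay apart. The Sox9 mutant libraries were not used here, and some list members are not reported here.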

Additional observations from a re-analysis of the deposited data

Results flagged for a closer look

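Only the genes named by rule and the list medians were searched here, and those genes include the 10 chosen each way for their stage shift. The genes below lay on opposite sides of 0 at E17 and at E14 with the deposited bounds of TRAP and whole lung apart at both stages. The list medians lay on opposite sides of 0. How many of all records meet this rule is not given, so the kinds of genes found have no background share. The bounds do not cover the spread between libraries, each stage had 1 pair of libraries, and the difference between the stages was not tested.

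Several of them were airway genes. Scgb3a2 differed by -1.52 at E17 and 0.95 at E14, Krt15 by -1.401 and 1.599, Cyp2f2 by -0.96 and 1.08, Upk3a by -0.995 and 0.75, Sox2 by -0.502 and 0.34, and the ciliogenesis regulator Foxj1 by -1.64 and 0.69. The proximal airway and club list was at -0.48 at E17 and 1.002 at E14, and the multiciliated list at -0.95 and 0.19. Only 7 of the 11 multiciliated genes passed the filter at E14: Cdc20b, Mcidas and Ccno were under 1 FPKM in both E14 libraries, so their E14 differences lie near 0 for lack of signal. Over the 7 genes the medians were 0.045 at E17 and 0.34 at E14. For the airway list, 9 of the 10 genes passed the filter at E14, with medians of -0.46 and 1.05. In the E16 wildtype TRAP libraries Scgb3a2 was at 145 and 121 FPKM and Krt15 at 6.59 and 6.46, against 106 and 2.33 in E17 TRAP.

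Genes of other kinds with the same order were Ccl21a (-2.38 at E17 and 1.38 at E14), Sec14l3 (-1.47 and 0.45), Msln of mesothelium (-0.46 and 1.08), the sodium channel subunit Scnn1b (-0.399 and 0.66), Fbln1 (-0.35 and 0.48) and Ces1d (-0.29 and 1.17). Ccl21a is uncertain: it has a second record on an unplaced chromosome 4 contig, listed at 0 in both E17 libraries, and its levels at E14 were 1.66 FPKM in TRAP and 0.0197 in whole lung. Ptgs1 had the reverse order, 0.44 at E17 and -1.65 at E14.

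For 3 further genes near-identical copies make the values uncertain. Eif3j1 differed by 0.84 at E17 and -5.12 at E14, and its near-identical copy Eif3j2 by -1.85 and 1.73. Their levels in E14 TRAP were 0.115 and 55.7 FPKM, and in E17 TRAP 45.1 and 4.42. Rps27, which has processed copies, differed by -1.75 at E17 and 1.19 at E14, and its E16 wildtype replicates were at 9.41 and 346 FPKM.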

How the results depend on the processing

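The alternatives run could not change the sign of a called value. A pseudocount keeps the sign, filters leave values as they are, and the 2 rescalings moved the median over all records from 0.074 only to 0.0995 and 0.02. List counts stayed within 1.5 times their value in 234 combinations of list and setting and moved further in 22. Values of named genes stayed within about 2 counting errors in 810 combinations. They moved beyond this limit in 282, of which 160 were at a pseudocount of 5 FPKM, where 113 genes stayed within it. With a pseudocount of 5 FPKM in place of 1, 295 records were higher and 511 lower, against 594 and 1101, and the members at least 2-fold lower numbered 1 for the proximal airway list, 2 for multiciliated, 0 for neuroendocrine, 4 for mesothelium, 0 for neural, 2 for cardiac muscle, 6 for mesenchymal ligands, 10 for mesenchymal and vascular receptors, 3 for integrins and 1 for AP-1 genes, and the epithelial receptors at least 2-fold higher numbered 1. This follows from the construction, since a larger pseudocount shrinks differences of low genes. With a mean of at least 5 FPKM (8989 records), 606 records were lower, and the lower members numbered 1 for multiciliated, 0 for neuroendocrine, 2 for lymphatic, 8 for leukocyte, 4 for mesothelium, 0 for neural, 2 for cardiac muscle, 7 for mesenchymal ligands and 4 for integrins, fewer genes being tested. The proximal airway list had 4 lower members with a pseudocount of 0.1 FPKM and 4 when the libraries were rescaled to a common total, where the cause was not tested. Of all calls 35.04% were in the direction of TRAP, 45.1% with the mean of at least 5 FPKM, 30.4% after that rescaling and 36.9% with each library centred on its median. The median over all records was 0.02 after the rescaling. Leaving out a replicate was not possible with 1 library per group. No paired analysis was possible because each E17 group holds 1 library and no result comes from a test. Depth limits the low genes: under 1 FPKM in TRAP, as for many leukocyte and neuroendocrine genes, a fold is imprecise.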

Other observations

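A group of genes that were high in E17 TRAP had E16 TRAP levels below or not far above those of E17 whole lung. Of the 594 higher records, 117 with at least 5 FPKM in E17 TRAP and no predicted model had both E16 wildtype levels under 1.5 times the E17 whole-lung level, on FPKM + 1, a limit set after the values were seen. Tor1aip2, a nuclear membrane protein gene, was at 169 FPKM in E17 TRAP, 38.6 in E17 whole lung and 48.3 and 49.98 in the E16 TRAP libraries. Gpbp1, a promoter-binding protein, was at 139, 34.1, 41.6 and 39.7 FPKM, and Tarsl2, a threonyl-tRNA synthetase, at 15.2, 3.38, 4.94 and 4.87. Dnm2, dynamin of endocytosis, was at 78.7 and 20.7 FPKM in the E17 pair and at 20.9 and 20.1 at E16. None of the 117 was a pan-epithelial gene, and 114 of them were above whole lung in E14 TRAP, 54 by at least 2-fold. The group also held late alveolar genes such as Sftpb (709 FPKM in E17 TRAP, 168 and 137 at E16) and Napsa (81.7 FPKM, 10.4 and 9.41). By contrast Cldn7 was at 122 and 121 FPKM at E16, against 56.3 in E17 whole lung.

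Among records too short to be used, Mir762 had the highest deposited value of the E17 TRAP library, 355945 FPKM, whose bounds corresponded to a nominal 0.492 fragments.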
